A study of Mus musculus with 9 samples.

Results

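Of 16899 H3K4me3 peaks in MYCN-driven mouse T cell lymphoma cells, 2193 overlapped no H3K27ac peak and no H3K27me3 peak, which is 13.0% of them (95% Wilson interval 12.5 to 13.5). They were chosen by these measured overlaps: a distinct H3K4me3 peak on the 19 autosomes, X or Y was taken when it shared not even 1 bp with a peak of either other list. They are called H3K4me3-only peaks here. Of the remaining peaks, 12667 had H3K27ac and no H3K27me3 and served for comparison, and 2039 had H3K27me3.

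The cells came from thymus of C57BL/6J mice and were labelled as T cell lymphoma driven by MYCN, the gene of the transcription factor N-MYC. Chromatin was profiled by ChIPmentation, in which a transposase adds the sequencing adapters to chromatin held on the antibody, with 7 antibodies: H3K4me3, H3K27ac, H3K27me3, EZH2, SUZ12, N-MYC and p300. Each antibody had 1 library, 2 input libraries had no peak list used here, and every library carried the same genotype label, so there was no non-lymphoma group. The driver of the MYCN transgene, the age of the mice and whether animals were pooled are not given in the sources used here. The T cell label was checked against markers: 12 of 14 T cell markers, Cd3e, Lck and Thy1 among them, had an H3K27ac-marked H3K4me3 peak within 1 kb of a start, and the other two, Lef1 and Bcl11b, had one with H3K27me3. Such an H3K27ac-marked peak was found at 2 of 8 B cell markers (Cd79a and Cd79b), at 0 of 8 myeloid markers and at 1 of 10 markers of thymic epithelium and stroma (Epcam).

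H3K4me3 is placed by SET1 and MLL methyltransferases at promoters, mostly those rich in CpG. Active promoters usually also carry H3K27ac, which p300 and its relative CBP write, while promoters held by Polycomb carry H3K27me3, written by EZH2 in a complex with SUZ12. The same lysine cannot hold an acetyl and a methyl group at once, and the peaks described here overlapped no call of either.

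Promoters of 4 genes of the cilium, the antenna-like organelle built on a microtubule core, were picked after a motif search, because their H3K4me3-only peak also had a p300 peak and the promoter held the motif in capitals. The promoter of Gas8, described below, also met this rule and is not shown. Other cilium genes with p300, Bbs5, Intu, Ift22, Cfap77 and Ttll13 among them, did not hold the motif. Traf3ip1 and Wdr35 encode subunits of the intraflagellar transport trains, Dync2h1 the heavy chain of the motor that carries these trains back to the cell body, and Bbs1 a subunit of the BBSome cargo adaptor. Sequences are from RefSeq on GRCm38.p6, from 250 bases before to 50 bases after the start, 5′ to 3′ on the gene's strand. Capitals mark GTTGCCA or its reverse complement, an arm of the X-box to which RFX factors are known to bind.
Traf3ip1, chr1:91494418-91494717, plus strand: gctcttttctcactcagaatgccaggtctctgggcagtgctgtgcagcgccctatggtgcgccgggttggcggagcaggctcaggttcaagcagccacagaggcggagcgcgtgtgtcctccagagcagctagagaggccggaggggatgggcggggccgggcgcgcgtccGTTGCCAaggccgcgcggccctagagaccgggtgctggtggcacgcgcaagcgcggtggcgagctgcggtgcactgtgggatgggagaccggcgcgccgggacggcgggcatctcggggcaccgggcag
Wdr35, chr12:8973751-8974050, plus strand: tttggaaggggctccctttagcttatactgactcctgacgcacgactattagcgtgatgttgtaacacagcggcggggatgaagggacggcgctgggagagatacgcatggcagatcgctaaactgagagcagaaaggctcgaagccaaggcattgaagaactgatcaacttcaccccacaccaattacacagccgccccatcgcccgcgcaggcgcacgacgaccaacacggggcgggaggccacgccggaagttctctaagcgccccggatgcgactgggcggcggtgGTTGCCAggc
Dync2h1, chr9:7177009-7177308, minus strand: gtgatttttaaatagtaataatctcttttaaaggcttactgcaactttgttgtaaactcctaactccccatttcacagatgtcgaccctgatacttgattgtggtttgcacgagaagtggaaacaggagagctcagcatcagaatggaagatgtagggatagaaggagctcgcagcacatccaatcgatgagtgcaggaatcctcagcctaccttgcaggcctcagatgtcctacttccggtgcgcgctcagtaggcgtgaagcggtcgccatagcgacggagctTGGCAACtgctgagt
Bbs1, chr19:4906578-4906877, minus strand: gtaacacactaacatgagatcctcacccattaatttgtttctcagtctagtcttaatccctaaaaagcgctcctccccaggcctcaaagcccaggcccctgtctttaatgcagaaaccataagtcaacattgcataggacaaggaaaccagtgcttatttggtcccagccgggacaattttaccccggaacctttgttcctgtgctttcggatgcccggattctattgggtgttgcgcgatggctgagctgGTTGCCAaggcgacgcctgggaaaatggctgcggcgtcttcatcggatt

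A pair of promoters from a chromosome 2 cluster of zinc-finger genes is shown because promoters with H3K4me3-only peaks there, also ones that are not next to each other, have nearly the same sequence. Capitals mark the longest run the pair shares exactly, 232 bases.
Gm2007, chr2:175737624-175737923, plus strand: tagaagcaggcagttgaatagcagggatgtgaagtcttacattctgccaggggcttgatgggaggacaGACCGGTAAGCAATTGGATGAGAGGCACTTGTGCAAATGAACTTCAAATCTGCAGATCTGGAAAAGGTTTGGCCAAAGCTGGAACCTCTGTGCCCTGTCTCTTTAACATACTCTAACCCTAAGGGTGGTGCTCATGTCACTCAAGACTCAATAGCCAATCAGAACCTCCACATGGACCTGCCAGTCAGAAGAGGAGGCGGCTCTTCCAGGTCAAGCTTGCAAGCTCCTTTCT
Gm14308, chr2:176636270-176636569, minus strand: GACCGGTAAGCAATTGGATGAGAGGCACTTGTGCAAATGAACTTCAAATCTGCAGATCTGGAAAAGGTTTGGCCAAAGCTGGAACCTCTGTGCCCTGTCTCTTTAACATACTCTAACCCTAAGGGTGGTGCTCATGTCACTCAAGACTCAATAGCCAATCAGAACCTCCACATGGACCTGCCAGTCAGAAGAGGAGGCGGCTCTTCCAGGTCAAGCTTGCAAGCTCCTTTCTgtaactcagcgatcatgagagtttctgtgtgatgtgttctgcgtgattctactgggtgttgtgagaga

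H3K4me3-only peaks were narrow and weak, which describes the list the selection used and was not tested. Their median width was 293 bp (interval of the median 288 to 300, from 200 to 3833 bp), against 2077 bp in H3K27ac-marked peaks. Their median fold enrichment, the deposited height of a peak over its background, was 4.25 (4.17 to 4.32, from 2.02 to 31.1), against 21.9 in H3K27ac-marked peaks. They covered 2.63% of all bases under H3K4me3. Of all H3K4me3 peaks under 300 bp wide 47.4% were H3K4me3-only (1136 of 2398), and of those 1000 bp or wider 0.631% were (67 of 10611). Strong members were few: 539 had a fold enrichment of 5 or more, 67 of 10 or more and 27 of 15 or more. Width and fold enrichment rose together with a Spearman rho of 0.428 over the 2193 peaks of this 1 library.

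**Figure D1:**
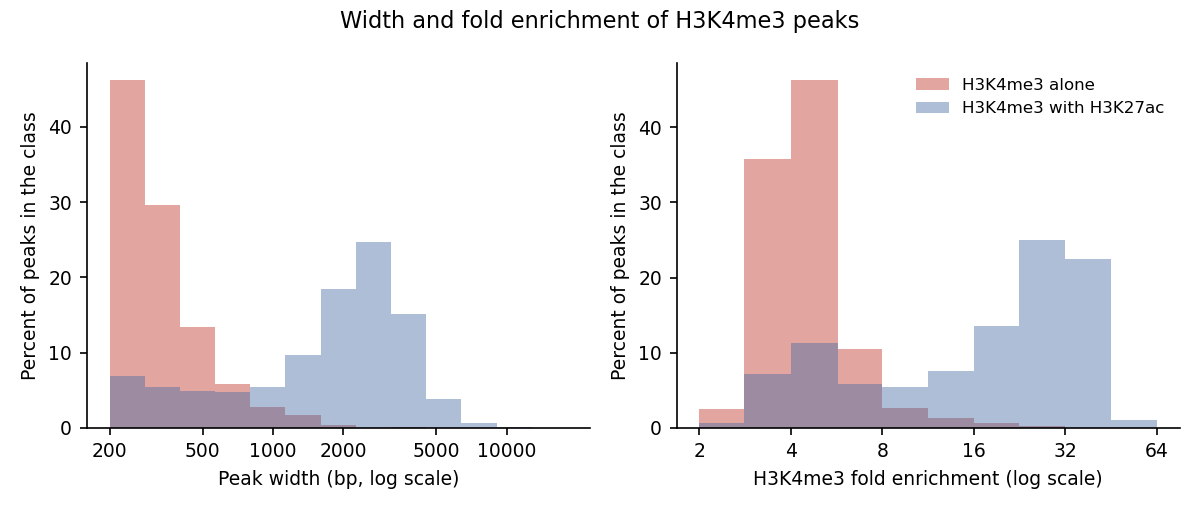
Percent of the 2193 H3K4me3-only peaks (red) and of the 12667 H3K27ac-marked peaks (blue) by peak width in bp (left) and by H3K4me3 fold enrichment (right), both on log axes. The red medians are 293 bp and 4.25, the blue ones 2077 bp and 21.9, and the blue class has a small second group at low fold enrichment.

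The edge of the selection ran between touching and overlapping peaks. Just inside it, the H3K4me3-only peaks near Traf7 and Utp11 (fold enrichment 4.90 and 4.37) lay 0 bp from an H3K27ac peak, and the one near Tbc1d2b (4.05) lay 2 bp away. Just outside it, peaks near Pex6, Eml3 and Cdc20 (5.19, 4.94 and 4.59) overlapped an H3K27ac peak by 1, 3 and 4 bp. The median gap to the nearest H3K27ac peak was 801 bp (766 to 837), with 1320 of 2193 peaks (60.2%, 58.1 to 62.2) within 1000 bp. The nearest H3K27me3 peak was much farther away, with a median of 44660 bp.

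Most H3K4me3-only peaks stood beside promoters, not on them. A summit within 1 kb of a protein-coding gene start was found for 270 peaks (12.3%, 11 to 13.8), against 66.6% of H3K27ac-marked peaks and 60.0% of all H3K4me3 peaks. A further 1471 (67.1%, 65.1 to 69.0) lay 1 to 5 kb from a start, against 12.4%, a difference of 54.7 percentage points (52.6 to 56.7). Genes with no listed strand were read at both ends, so members assigned to their starts may lie at a gene end; 217 of the 270 were at a start of known strand. The remaining 163 lay deeper in gene bodies and 289 outside protein-coding genes. Among peaks with a fold enrichment under 5, the 1 to 5 kb zone held 78.2% of H3K4me3-only and 43.0% of H3K27ac-marked peaks, a difference of 35.2 points (32.2 to 38.0). Strong members had another layout: of the 67 with a fold enrichment of 10 or more, 50 lay at starts (74.6%) and 1 in the 1 to 5 kb zone. H3K27ac-marked peaks of that height shifted the same way, with 85.9% at starts and 4.30% in that zone. All intervals here cover counting error only, and with 1 library per antibody no p-value is given.

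**Figure D2:**
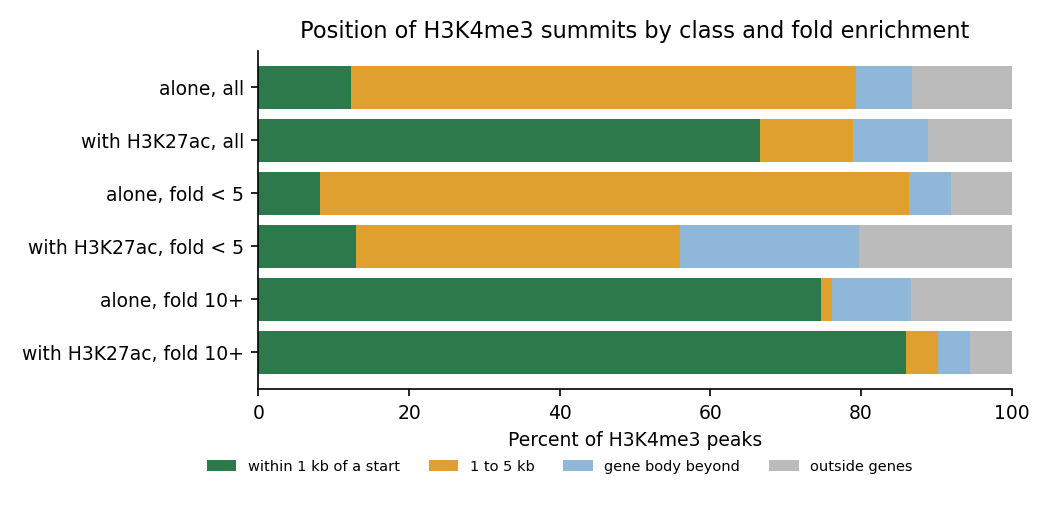
Position of H3K4me3 summits for H3K4me3-only peaks ("alone") and H3K27ac-marked peaks, for all peaks and for those with a fold enrichment under 5 or of 10 and more, as percent of each class. The 1 to 5 kb zone takes 67.1% of all H3K4me3-only peaks but 1.49% of those with a fold enrichment of 10 or more. For H3K27ac-marked peaks the values are 12.4% and 4.30%.

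The flanking peaks sat mainly on the transcribed side of a start. Of the 1243 flanking members whose gene has a known strand, 1070 (86.1%, 84.1 to 87.9) lay downstream of the start and 173 upstream, whereas 70.4% of flanking H3K27ac-marked peaks lay downstream, a difference of 15.7 points (12.4 to 19). Their median distance from the start was 2137 bp (2079 to 2176). Of the 4 position classes of members they were the weakest, with a median fold enrichment of 4.12 and a median width of 277 bp. Of the 1471, 1348 (91.6%, 90.1 to 93.0) had an H3K27ac-marked H3K4me3 peak within 1000 bp, against 64.9% of flanking H3K27ac-marked peaks. Over all 1471 the median gap to the nearest such peak was 199 bp. The neighbours of the 1348 were themselves strong, with a median fold enrichment of 31.6 and a median width of 2825 bp. How far the peak caller split single H3K4me3 domains into a main peak and a small one was not tested. When H3K4me3 peaks within 1 kb of each other were merged first, a step chosen after seeing the data, there were 583 members, of which 29.0% lay at starts and 7.55% had p300. When an H3K27ac or H3K27me3 peak within 1 kb also removed a peak, there were 802.

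**Figure D3:**
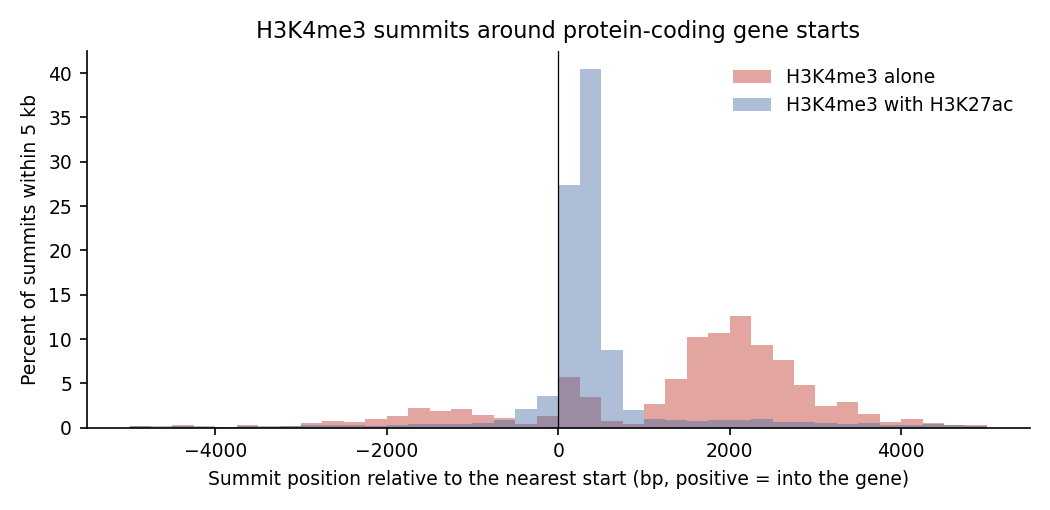
Position of H3K4me3 summits within 5 kb of the nearest protein-coding start of known strand, in bins of 250 bp, as percent of the summits in each class. Blue H3K27ac-marked summits gather just downstream of the start, and red H3K4me3-only summits form a broad group with its highest bin at 2000 to 2250 bp, holding 12.6% of them.

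The flanking peaks belonged to 1361 genes (6.22% of the 21887 protein-coding genes), of which 103 had more than 1 such peak and none over 3. Among 22 cell cycle and checkpoint genes, 7 had one (31.8%, 16.4 to 52.7): the cyclin Ccnb1, the kinases Cdk2, Cdk4 and Cdk6, the kinase inhibitor Cdkn1b, the checkpoint kinase Chek1 and the transcription factor E2f1. Among 36 T cell identity and signalling genes, 5 had one (13.9%, 6.08 to 28.7): Ikzf1, Il7r, Lck, Lef1 and Runx3. Ppia and Tbp were the 2 of 16 housekeeping genes (12.5%), and Cd68 and Cebpb the 2 of 20 myeloid genes (10%, 2.79 to 30.1). The intervals of the T cell, housekeeping and myeloid lists include the share over all genes. An H3K27ac-marked H3K4me3 peak at a start was found at 13 of the 22 cell cycle genes (59.1%), 19 of the 36 T cell genes (52.8%) and 37.4% of all genes. The flanking shares were not adjusted for this. The count was 2 of 36 for the cilium list (Ift52 and Ift57), 1 of 24 for DNA repair (Msh6) and 1 of 40 for T cell activation (Gzma). No gene of the interferon response, B cell, germline, neuronal or thymic epithelium lists had one (0 of 20, 15, 24, 20 and 20). The widest flanking peak, 1678 bp near Preb, which encodes an exchange factor of vesicle transport, had a fold enrichment of only 3.38 and lay 165 bp from an H3K27ac-marked peak.

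The 270 members at starts fell into different settings. For 96 (35.6%, 30.1 to 41.4) an H3K27ac-marked H3K4me3 peak lay within 1 kb, and these resembled the flanking peaks in size, with a median fold enrichment of 3.99 and a median width of 269 bp. The other 174 stood apart, with a median fold enrichment of 7.15 (6.24 to 7.83) and a median width of 726 bp (633 to 814), and they held all 50 start members with a fold enrichment of 10 or more. Of these 174, 35 (20.1%) had an H3K27me3 peak within 1 kb and 13 (7.47%) an H3K27ac peak. At starts of known strand 70.5% of member summits lay downstream (153 of 217), with a median position of 174 bp, against 91.6% and 289 bp in H3K27ac-marked peaks. Members made up 2.66% of all H3K4me3 peaks at starts.

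The strongest H3K4me3-only peak, 1789 bp wide with a fold enrichment of 31.1, lay 293 bp from an end of Nup43, a nuclear pore subunit gene with no listed strand. Its nearest H3K27ac peak was 2803 bp away. Abtb2 had the widest peak, 3833 bp with a fold enrichment of 26.6, and was the only member with EZH2 (fold enrichment 6.06), N-MYC (3.74) and p300 (4.77) peaks together. An H3K27me3 peak lay 671 bp from it. Dph2, which acts in diphthamide synthesis, had a fold enrichment of 26.4 with an EZH2 peak at 4.46 and a p300 peak at 3.64.

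Next in order came the intraflagellar transport gene Traf3ip1 (23.7) and the mitochondrial carrier gene Slc25a14 (23.1), both with p300. Otud3, encoding a deubiquitinase, followed at 21.1 with EZH2 at 4.75 and p300 at 5.77. The fatty acid transporter gene Slc27a4 (19.8) and Gfod2 (18.8) had no factor peak. Alkbh7, a mitochondrial AlkB homologue gene, stood at 18.8 with p300 at 3.72. Map9, encoding a microtubule-associated protein, stood at 18.7 with p300 at 10.7, the second highest p300 value among members. Both members of this rank away from starts lay on pseudogenes: Gm12715 on chromosome 4 (21.7) and Gm9755 on chromosome 8 (19.9).

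Among the widest, Tnfsf11, encoding the cytokine RANKL, had a peak of 2042 bp (fold enrichment 10.3, N-MYC 3.06). Ttl, encoding tubulin tyrosine ligase, had one of 1922 bp (17.9, EZH2 3.36). Irf8, a transcription factor of myeloid and B cells, had one of 1807 bp and modest height (7.99), with no factor and an H3K27me3 peak 415 bp away. The 4 members farthest from any gene lay 123775 to 197160 bp from one, were 213 to 362 bp wide and had fold enrichments of 4.86 to 7.25, with no factor peak.

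**Figure D4:**
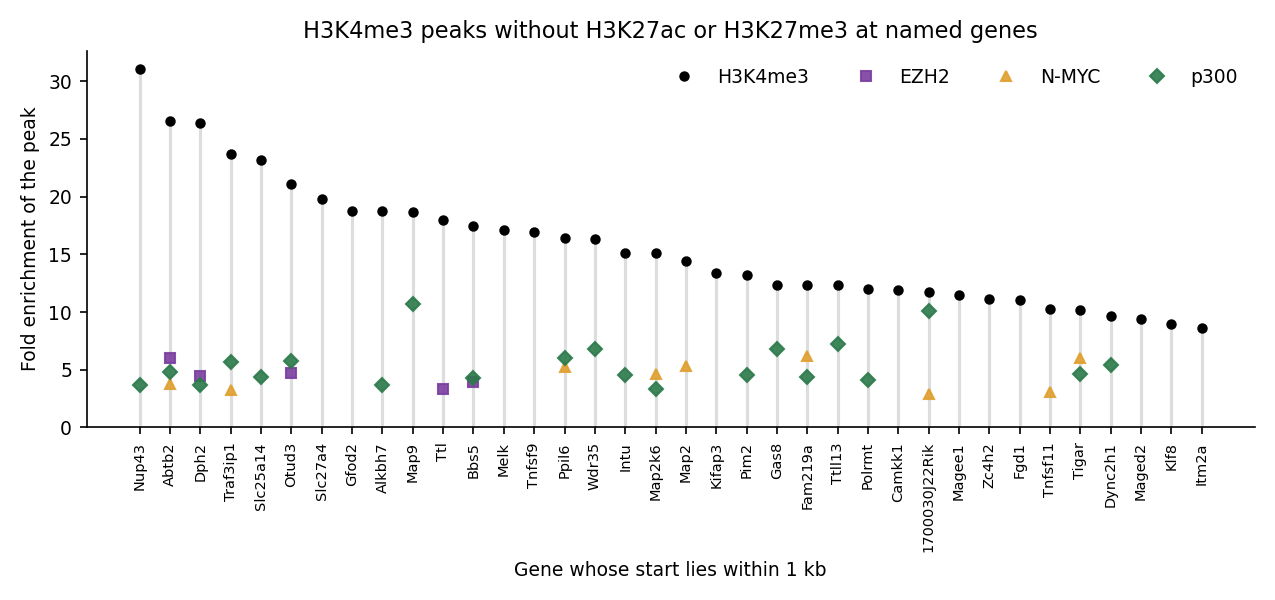
Deposited fold enrichment of the H3K4me3 peak (black) and of any EZH2 (purple), N-MYC (orange) or p300 (green) peak overlapping it, at the 36 named genes with the highest H3K4me3 value outside the chromosome 2 cluster, each 1 library. H3K4me3 runs from 31.1 at Nup43 to 8.61 at Itm2a. Factor values are lower in every gene shown, and 12 of the 36 have no factor. Some of these genes were named for their factor value, and over all 270 start members 53 (19.6%) had a factor peak. Below the range shown, a factor value was above H3K4me3 at some named genes and below it at others. It was above at Ankrd13d (p300 10.97, H3K4me3 5.70), Kmt5c (p300 8.87, H3K4me3 4.90) and Gm2a (N-MYC 7.31, H3K4me3 4.78). It was below at Bbs1 (p300 4.03, H3K4me3 7.58).

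Factor peaks were rare on H3K4me3-only peaks. EZH2 was called on 12 of 2193 (0.547%, 0.313 to 0.954), against 52.1% of H3K27ac-marked peaks and 48.5% of all H3K4me3 peaks. N-MYC was called on 23 (1.05%, 0.700 to 1.57), against 54.3% and 43.7%. The p300 count was 55 (2.51%, 1.93 to 3.25), against 68.9% and 54.4%. SUZ12 was called on 2 (0.0912%), against 0.253% of H3K27ac-marked peaks and 8.37% of all. In all, 71 members had a factor peak, and 12 had N-MYC with p300. The member shares depended on how the lists were made. For EZH2 the share was 2.11% when an overlap had to cover 0.5 of the shorter peak, 1.75% at a fold enrichment of 4 or more in all lists and 2.06% after merging peaks within 1 kb. With the same settings N-MYC was on 1.62%, 2.54% and 3.43% of members and p300 on 2.72%, 4.46% and 7.55%.

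Members were weak, and weak H3K27ac-marked peaks carried fewer factor calls than strong ones, so the comparison was repeated with strength taken into account. With the H3K27ac-marked peaks weighted to the members' distribution over 10 strata of fold enrichment times width, their EZH2 share was 1.71%, their N-MYC share 9.79% and their p300 share 20.9%. The EZH2 shares of members with the 3 other settings were above this weighted value, which was not recomputed for those settings. Between a fold enrichment of 10 and 15, p300 was on 10 of 40 members (25%) and on 57.3% of H3K27ac-marked peaks, a difference of -32.3 points (-43.6 to -16.8). There N-MYC was on 6 of 40 (15%) against 44.0%, a difference of -29.0 points (-37.5 to -14.6), and EZH2 on 1 of 40 against 12.5%, where the interval of the difference (-13.0 to 0.558) includes 0. At 15 or more, p300 was on 13 of 27 members, N-MYC on 4 and EZH2 on 5, against 89.2%, 73.2% and 79.1%. Strength is not matched in that open range, since no member exceeded 31.1 and 2842 H3K27ac-marked peaks lay between 32 and 45.3.

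At gene starts the factors were more common. The 270 start members had p300 in 43 cases (15.9%, 12 to 20.8), N-MYC in 20 (7.41%, 4.85 to 11.2) and EZH2 in 8 (2.96%, 1.51 to 5.74). H3K27ac-marked peaks at starts, weighted in the same way, had 29.6%, 22.2% and 4.83%. For EZH2 the answer depended on the strata: this weighted share and that with 50 strata (4.02%) lay within the members' interval, and that with strata of fold enrichment alone (6.90%) lay above it. Among members at starts with a fold enrichment of 10 or more, 21 of 50 had p300, 9 had N-MYC and 6 had EZH2 (12%), against 87.9%, 72.6% and 76.6% of H3K27ac-marked peaks at starts in the same open range, for which strength is again not matched. Of the 1471 flanking members, 10 had p300, 1 had EZH2 and none had N-MYC or SUZ12.

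**Figure D5:**
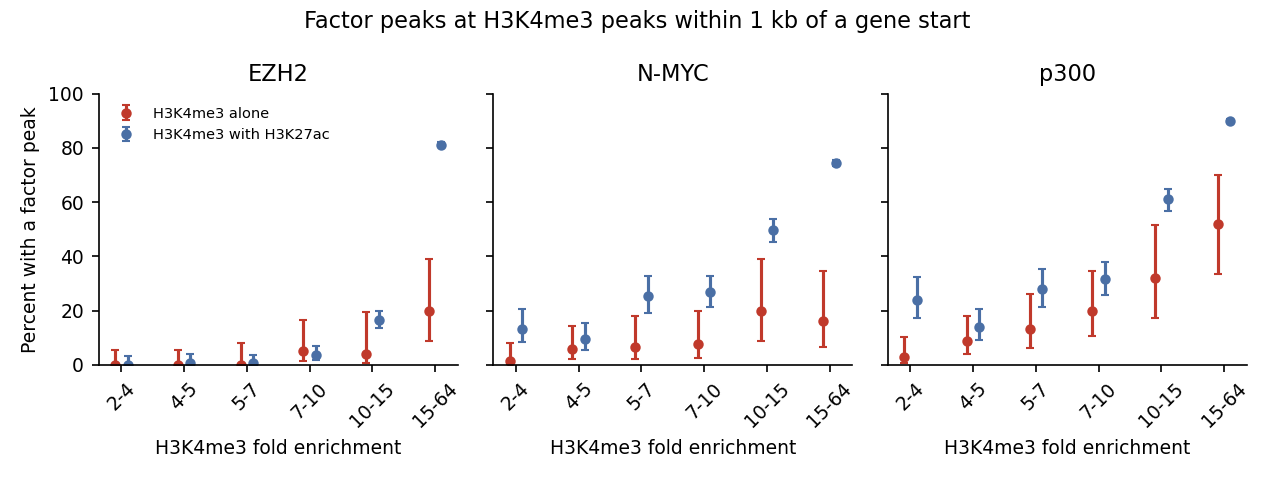
Percent of H3K4me3 peaks at gene starts with an EZH2, N-MYC or p300 peak, by H3K4me3 fold enrichment, for H3K4me3-only (red) and H3K27ac-marked (blue) peaks, with 95% Wilson intervals. Between 10 and 15 the red p300 share is 32% and the blue one 61.0%, the intervals of several lower bins overlap, and the bin from 15 has no upper bound, so strength is not matched in it.

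Among the highest N-MYC values were those at Gm2a, encoding the GM2 ganglioside activator (7.31), Smpd3, a sphingomyelinase gene (6.91), Fam219a (6.16) and Tigar, encoding a phosphatase that limits glycolysis (6.05). For comparison, the median N-MYC value was 4.68 over the 23 members and 5.92 over H3K27ac-marked peaks with N-MYC. The highest p300 values were at Ankrd13d (10.97), Map9 (10.7), 1700030J22Rik (10.1), Kmt5c, encoding a histone H4 methyltransferase (8.87), and near Cfap54, a gene of the sperm and cilium axoneme (8.62). The median p300 value was 5.03 over the 55 members and 5.15 over the comparison peaks with p300. Ankrd13d and Kmt5c lay 96 and 137 bp from an H3K27ac-marked H3K4me3 peak, whereas Map9 stood 11666 bp from one.

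The highest EZH2 value, 6.75, was at Foxj1, the transcription factor of motile cilia. Its peak also held SUZ12 (3.47) and p300 (6.90), was 749 bp wide with an H3K4me3 value of 7.38, and lay 10 bp from an H3K27me3 peak. The other member with SUZ12 (3.75) also had EZH2 (5.42) and lay between genes on chromosome 16, 173 bp from an H3K27me3 peak. Both members with SUZ12 thus lay beside H3K27me3 calls without touching them.

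The fixed gene lists were mostly empty of members at starts. Over all protein-coding genes, 268 (1.22%) had a member at a start and 37.4% an H3K27ac-marked peak. The cilium list had 6 of 36 (16.7%, 7.87 to 31.9), among them Bbs1 (H3K4me3 fold enrichment 7.58) and Bbs5 (17.5) of the BBSome, Ift43 (7.70) and Ift74 (7.83) of the transport trains, and Dync2h1 (9.65). Of the 36, 19 had an H3K27ac-marked peak and 4 an H3K27me3-marked one. The list was chosen with earlier results of these data known, and no test of it was made.

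Outside the cilium list, Map2, a neuronal microtubule gene, had a peak of 14.4 with N-MYC at 5.28, 165 bp from an H3K27ac peak. Cd22, a B cell receptor gene, had a weak peak (3.77) 792 bp upstream of its start. Irf8 was the myeloid gene. None of the 36 T cell identity, 20 interferon, 16 housekeeping, 22 cell cycle, 24 DNA repair or 24 germline genes had a member at a start. For the 36 T cell genes this count of 0 allows a share of up to 9.64% by the Wilson interval.

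Other cilium and microtubule genes stood among the strong members; they were named after their values were seen. Wdr35 had an H3K4me3 value of 16.4 with p300 at 6.76. Intu, a planar polarity gene needed for cilia, had 15.2 with p300 at 4.53. Gas8, of the axonemal dynein regulatory complex, had 12.4 with p300 at 6.84. Ttll13, a tubulin polyglutamylase gene, had 12.3 with p300 at 7.26, and Kifap3, of the kinesin that drives transport outwards, had 13.4 with no factor. Ift22 (5.73) and Cfap77 (6.33) were weaker, with p300 at 5.15 and 5.03.

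The GTTGCCA letters shown in capitals in the Traf3ip1, Wdr35, Dync2h1 and Bbs1 promoters were searched on both strands and had been added to 6 other motifs after the promoters were seen. The member shares below were counted on those same promoters, so they are a description and not a test. Of the 38 promoters of start members with p300 that had a sequence, 9 held them (23.7%, 13.0 to 39.2): those 4 and Gas8, Kmt5c, Tigar, 1110051M20Rik and A930007A09Rik. Without p300 it was 8 of 179 (4.47%, 2.28 to 8.57), and the 179 included 18 near-copy promoters of the chromosome 2 cluster with no match. Over H3K27ac-marked peaks at starts with p300 it was 3.91%, and over all 21263 promoter windows of protein-coding genes 4.18%. Bbs5, Intu, Ift22, Cfap77, Ttll13 and Map9, though with p300, had no exact match in this window. Other forms of the X-box were not searched.

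Member promoters had a lower CpG content than H3K27ac-marked ones. Strength was not matched in this or in the motif comparisons below. The ratio of observed to expected CpG had a median of 0.614 (0.548 to 0.654) over 217 member promoters, 0.800 over H3K27ac-marked ones and 0.567 over all windows. The members' interval included the value over all windows. With p300 the member median was 0.730, without it 0.548. The promoters without p300 included all 18 near-copy windows of the chromosome 2 cluster, with a median of 0.229. Outside that cluster the member median was 0.630 (0.606 to 0.676), an interval that lay above the value over all windows. GGGCGG, the core of the GC box, was in 50.7% of member promoters (55.3% outside the cluster), 68.6% of H3K27ac-marked ones and 46.2% of all. The E-box CACGTG, which MYC proteins bind, was in 8.76% against 10.9% and 7.84%, and in 2 of the 16 member promoters with an N-MYC peak. CCGGAAG, an ETS-type motif, was in 14.3% against 22.6% and 11.6%. GCATGCGC was in 2.76% against 6.39% and 3.52%, and TATAAA in 11.5% against 5.55% and 12.6%.

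One stretch of chromosome 2 held a dense group of members. From 175270556 to 178078621 bp (mm10), the outer ends of this group, 30 of 37 H3K4me3 peaks were H3K4me3-only and the other 7 had H3K27ac. Of the 30, 19 lay at starts of zinc-finger or predicted genes such as Zfp966, Zfp967, Zfp968, Gm2007, Gm4724, Gm14308 and Gm14325. The region was picked out after its values were seen. Members at starts there were of medium height, from 6.64 at 2210418O10Rik to 16.8 at Gm14325 with a median of 11.7, and 725 to 1334 bp wide. They gave 12 of the 50 start members with a fold enrichment of 10 or more. None of the 30 had an EZH2, SUZ12, N-MYC or p300 peak, and the start members lay 34073 to 517075 bp from the nearest H3K27ac peak.

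The promoters of this cluster were near copies of each other. Any pair of its 18 promoter windows shared an exact run of at least 41 bases with a median of 96, and the best partner of each shared a median of 282.5 of 300 bases. Among the other 199 member promoters the median run of a pair was 8 bases. The 232-base run of Gm2007 and Gm14308 shown in capitals is one case, and both peaks had a fold enrichment of 15.78. Equal values were not limited to the cluster: Map2 on chromosome 1 and Gm2026 in the cluster both had 14.42. All 18 held CCAAT, none held GGGCGG or CACGTG, and their CpG ratio ran from 0.0587 to 0.297. CCAAT was in 49.8% of all member promoters, in 45.2% outside the cluster (38.5 to 52.2), in 39.1% of H3K27ac-marked promoters and in 38.2% of all windows. How reads that fit several copies were assigned is not given in the sources used here, so the height of each single copy is uncertain.

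On X, members took a larger share of start peaks. Of 311 H3K4me3 peaks at X-linked starts, 25 were H3K4me3-only (8.04%, 5.50 to 11.6), against 2.49% on autosomes, a difference of 5.55 points (2.99 to 9.12), and 2.31% on autosomes without the chromosome 2 cluster. The median height of all start peaks was 22.2 on X and 25.3 on autosomes. Among start peaks with a fold enrichment under 10, members were 33.3% (22.7 to 45.9) on X and 12.6% (11.03 to 14.3) on autosomes. Beside Slc25a14, the X-linked members included Pim2, encoding a kinase (13.2, p300 4.53), the MAGE family genes Magee1 (11.5) and Maged2 (9.38), Zc4h2 (11.1), Fgd1, encoding a GTPase exchange factor (11.1), Klf8, a zinc-finger factor (8.996), and Itm2a (8.61). Of the 25, Slc25a14 and Pim2 had a factor peak, against 53 of all 270 start members (19.6%, 15.3 to 24.8), a difference not tested.

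Away from gene starts, members often lay on pseudogenes. Over all 2193 members, 217 overlapped a pseudogene (9.9%), against 2.07% of H3K27ac-marked peaks. Of the 337 gene-body and intergenic members over 5 kb from an H3K27ac-marked H3K4me3 peak, 182 overlapped a pseudogene (54.0%, 48.7 to 59.3), against 154 of 1756 H3K27ac-marked peaks in the same setting (8.77%, 7.54 to 10.2). Their median fold enrichment was 5.88 and their median width 332 bp, against 9.84 and 532 bp in the 154. A factor peak lay on 1 of the 182 and on 36 of the 154, with strength not matched. Rpl28-ps1, a ribosomal protein pseudogene inside Zranb3, carried a peak of 12.5. Pseudogenes resemble their parent genes, and the share of reads that could have come from the parents was not tested.

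Other noncoding genes were seldom hit. Of 408 tRNA genes, 1 was overlapped by a member and 153 by H3K27ac-marked peaks. Of 452 members in gene bodies or outside genes, 34 (7.52%, 5.43 to 10.3) had the start of a long noncoding RNA gene within 1 kb, against 14.4% of H3K27ac-marked peaks. The strongest were Gm46174 (12.4) and 1700064M15Rik (12.3, with p300 at 4.72). The depth behind each list is unknown, and a missing H3K27ac or H3K27me3 call does not show that the mark was absent.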

How the data were processed

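The authors deposited 1 peak list per antibody. Per the submitters' processing notes the tools were FastQC, Bowtie2, SAMtools, MACS2 and deepTools on mm10 (GRCm38), with versions, filters and use of the input libraries not given in the sources used here. In the deposited lists the fold enrichment is a linear ratio, p-values and q-values are −log10 values, the score is a whole number and the summit is an offset within the peak. The fold was used as deposited, and the smallest −log10 q of H3K4me3 was 2.08. Read depth is unknown.

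Peaks were compared by overlap of at least 1 bp in Python 3.11.15 with pandas 2.3.3, NumPy 2.4.6 and SciPy 1.17.1, steps that were tested on simulated data. Shares have 95% Wilson intervals, differences Newcombe's, and medians order-statistic intervals. Gene starts came from RefSeq GRCm38.p6: 17492 of 21887 protein-coding genes had a listed start with strand, and the other 4395 were read at both ends. A summit within 1 kb of a start was assigned to that gene. No genome sequence was used, so exons and introns were not distinguished.

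The members and gene lists were chosen with earlier results of these data known. Named were the 12 highest members, the 8 widest, the 5 with the highest EZH2, N-MYC or p300 value, all with SUZ12, the 4 farthest from genes, those at genes of 12 lists and 3 on each side of the edge. Some of these genes are not reported here. Others were named after their values were seen, and the chromosome 2 region, the bins of fold enrichment, the split of start members, the X comparison and the flanking genes of the lists were also chosen then. Alternatives varied the overlap, thresholds, chromosomes, start window and strata.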

Additional observations from a re-analysis of the deposited data

How the results depend on the processing

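Of 37 alternative values of the 6 main results, 12 stayed within the interval of the main value, or within 1.5 times it for the count, and 25 did not. With a minimum overlap of 0.5 of the length of the shorter peak, EZH2 was on 2.11% of members, N-MYC on 1.62%, and 13.96% lay at starts. When a mark within 1 kb also removed a peak, 802 members were left, with 3.49% p300, 16.8% at starts and a median width of 315.5 bp. At an H3K4me3 q-value of 1e-05 or less there were 1226 members, with 0.979% EZH2, 1.71% N-MYC, 3.997% p300, 16.2% at starts and a median of 335.5 bp. With a fold enrichment of 4 or more in all lists the values were 1.75%, 2.54%, 4.46%, 20.3% and 354 bp. A start window of 5 kb took in 79.4%. Merging H3K4me3 peaks within 1 kb of each other, an alternative added after seeing the data, left 583 members, with 2.06% EZH2, 3.43% N-MYC, 7.55% p300, 29.0% at starts and a median of 355 bp. On autosomes alone no main result moved. In each setting the factor shares of members stayed below 8%. With strata of fold enrichment alone, the weighted shares of H3K27ac-marked peaks were 2.53% EZH2, 12.5% N-MYC and 24.3% p300, and with 50 strata, also added later, 1.60%, 9.41% and 20.7%. No paired analysis was possible because each antibody had 1 library. No library could be left out for the same reason.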
